A study of Sus scrofa with 6 samples.

Results

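The genes of the cytosolic ribosomal proteins were followed from porcine embryonic fibroblasts (PEFs) to the porcine induced pluripotent stem cells (piPSCs) made from them. Members were the rows whose gene symbol is RPL or RPS followed by a number, with an optional A, X, Y or L suffix and a further number, or is RPLP0, RPLP1, RPLP2 or RPSA. The rule took 55 of the 18007 rows of the table, which carry 52 distinct symbols and lie on 14 chromosomes. Of these, 22 belong to the small subunit and 33 to the large subunit. RPL5, RPL6 and RPLP0 were each listed at a second position. Rows listed by identifier alone were not members, so RPL4, RPL8, RPLP1 and other core proteins of the ribosome are absent from these counts. Rows outside the rule that matched ribosomal proteins are counted separately, with values for some of them.

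The ribosome is the machine that reads messenger RNA and builds proteins, and its small and large subunits hold ribosomal RNA and one copy of nearly every ribosomal protein. Because the proteins are needed in equal numbers, their genes are usually expressed together and strongly, and their messages form one of the largest groups in a growing cell. Many of these messages begin with a terminal oligopyrimidine (TOP) tract, a C followed by a run of C and T bases at the transcript's first base, through which growth signals control their translation. Some members have L-type paralogs, close relatives such as RPL3L and RPS27L that are expressed in fewer tissues or under other conditions.

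The 6 libraries came from 3 cell lines, numbered 5, 7 and 8, with 1 PEF and 1 piPSC library per line. PEFs were grown from the tip of the ear of embryos at day 90 of a cross between a Longwhite (Large White) boar and a Meishan sow, and were used within a few passages. The piPSCs came from the PEFs of the same number after lentiviral delivery of doxycycline-dependent Oct4, Sox2, Klf4 and cMyc (OSKM), as picked colonies in LF2i medium on mouse feeder cells, while PEFs were the cells before delivery. Medium, feeder cells and colony picking therefore changed together with cell state and cannot be told apart from it, and per-gene values do not let feeder RNA be told apart from piPSC RNA.

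Poly-A RNA was sequenced, and levels are given as FPKM, fragments counted per gene, scaled by the length of the gene model and the total of the library. The totals recovered from the FPKM values ran from 11010629 to 17836510 fragments per library. FPKM summed to between 337074 and 348943 in PEFs and to between 420498 and 437853 in piPSCs. Of 10 fibroblast markers, 9 fell (limma, adjusted p under 0.05) and their summed FPKM was 4640 to 6810 in PEFs and 131 to 260 in piPSCs. Of 7 pluripotent markers in the table, SOX2 and LIN28B were tested (log2 fold changes of 1.31 and 1.80, adjusted p of 0.0626 and 0.0667), with NANOG, SALL4, ESRRB, EPCAM and CDH1 at or near 0 FPKM in every library. The summed level of the 7 was 2.96 to 9.16 FPKM in piPSCs against 0.0703 to 0.202 FPKM in PEFs. Summed FPKM reached at most 2.59 for the endothelial, 3.87 for the keratinocyte and 5.77 for the blood markers. DDX3Y, a gene of the Y chromosome, had 1527 fragments in PEF8 and 1868 in piPSC8 but 0 in both libraries of lines 5 and 7, although the lines were described as male. Results are therefore also given without line 8.

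The first bases of the transcripts were read from the RefSeq annotation of Sscrofa11.1, the build of the files, for the 50 members that matched. The windows below hold the 20 bases before and the 10 bases from the annotated start, so the first base of the transcript is the 21st letter. Capitals mark the longest run of C and T bases that touches the 10 bases on either side of the start. The first 6 are members with long runs, from both subunits and the stalk. The last 5 are the L-type paralogs and RPL32, a strongly changed member with a short run.
RPL34 (chr8:113471990-113472019, minus strand): ctcgcgagaCCTTCCCTTTCCTCTTCCggg
RPL26 (chr12:53553444-53553473, minus strand): cggaagacgactgtggTTCTCTTCCCTTTT
RPL7 (chr4:62602410-62602439, plus strand): cagcgcgcatgcgctaaCTTCCTCTTTCCC
RPS20 (chr4:75762189-75762218, plus strand): cacgcaggcctcacgCCTTCCTCTTTgaag
RPS26 (chr5:21431636-21431665, plus strand): gccgagccgttggccaCTTCCTCTCTCgcg
RPLP0 (chr14:40223934-40223963, minus strand): cgcgccggcgtacagCCCTCCTCTCgccag
RPL26L1 (chr16:51276683-51276712, minus strand): agcaaggaagcctcaCTTCCggccctgagc
RPL7L1 (chr7:37940529-37940558, plus strand): cctaccggaagtcggtgggaagcgTTTCCT
RPL3L (chr3:40005028-40005057, plus strand): gaactcctgcggctcaacagCCCTCTgctg
RPS27L (chr1:108881310-108881339, plus strand): aacgtggCTCCCTacccgccatacaccagt
RPL32 (chr13:68793169-68793198, minus strand): ctcggcgctgCCTTacggaggtggcagcca

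A run of at least 8 C or T bases lay at the start of 23 of the 50 members (46.0%), against 2611 of 19552 RefSeq protein-coding genes (13.4%). The transcript began with C in 24 members (48.0%) and in 25.8% of all genes. The letters CCGGAAG, an ETS factor motif, stood on either strand in the 250 bases before to 50 bases after the start of 42.0% of the members and 11.3% of all genes. GGGCGG, the core of the GC box, stood in 62.0% and 51.7%. RPL26 and RPL7 had runs of 14 and 13 bases, while their paralogs RPL26L1 and RPL7L1 had runs of 5 and 7. Annotated starts may lie far from the true ones. For RPL11, RPL27, RPL30 and RPS3 the RefSeq start lay well inside the gene model of the table. RPL27, with a run of 17, had its start at 19894202 on the minus strand, in a model reaching 19894481. RPS3 had its start at 9625275, in a model from 9618623. Whether such windows hold a true start was not tested. A run is a description of the letters, not of a TOP message in these cells.

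Nearly every ribosomal protein gene was upregulated after reprogramming. Of the 50 members with a mean FPKM of at least 0.5, 48 rose, 0 fell and 2 did not pass the test (limma, adjusted p under 0.05, Benjamini-Hochberg over 12428 genes). All 50 changes were above 0, and voom on recovered fragments called 49 higher and 0 lower. The background was 30.3% of all genes tested called higher and 21.5% called lower. The median log2 fold change of (FPKM + 1) was 1.33 over the 50 members and 0.20 over all genes tested. A rise of at least 2-fold was called in 42 members, where 20.2% of all genes tested had one. All 3 piPSC libraries lay above all 3 PEF libraries for 49 members, and for 37.3% of all genes tested.

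**Figure D1:**
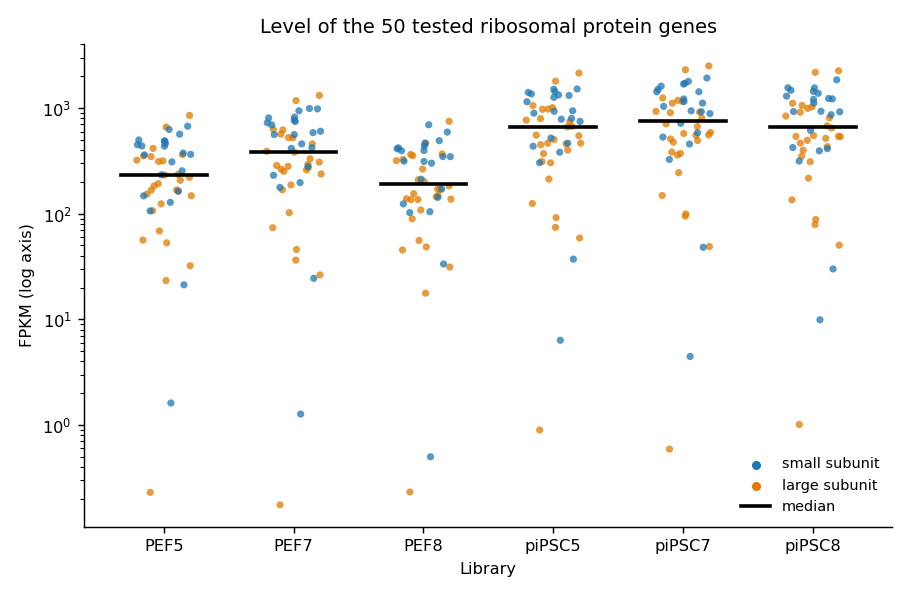
FPKM (log axis) of the 50 tested ribosomal protein genes in each of the 6 libraries. Each point is 1 gene, coloured by subunit, and the black line is the median, which was between 192 and 386 FPKM in PEFs and between 663 and 760.3 FPKM in piPSCs.

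The size of the rise varied with the scaling of FPKM and the number of calls with the lines, while 0 members were called lower under all 19 alternatives run. Rescaling each library to the same summed FPKM moved the median of all genes to -0.06 and that of the members to 1.01, with 44 members higher, 0 lower and 27 at least 2-fold higher. Over the whole table, 3763 genes were called higher and 2667 lower in the deposited scale (58.5% of the calls higher), and 2627 higher and 3383 lower after rescaling (43.7% higher). Members were therefore above the median of all genes by 1.13 in the deposited scale and by 1.07 in the rescaled one. Rescaling each library to its median ratio left 40 members higher, 0 lower and 29 at least 2-fold higher, at a median of 1.065. In that scale 22.8% of all genes tested were called higher. Without both libraries of line 8, 35 of the 50 members rose (23.6% of all genes tested). Without both libraries of line 5, only 11 of the 50 passed (14.2% of all genes tested), at a median of 1.32. In such bulk libraries, fewer cells of a type and less RNA per cell cannot be told apart.

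The members also took a larger part of each library. Their share of summed FPKM was 4.17%, 6.32% and 3.54% in PEF5, PEF7 and PEF8, and 8.69%, 9.81% and 9.04% in piPSC5, piPSC7 and piPSC8. The share was 4.68% ± 1.46 (SD, n = 3) in PEFs and 9.18% ± 0.577 (SD, n = 3) in piPSCs, and the groups did not overlap. The exact two-sided permutation test gave p = 0.1 with n = 3, the smallest p that 3 against 3 allows. The ratio of piPSC to PEF was 2.08 in line 5, 1.55 in line 7 and 2.55 in line 8. As a share of counted fragments, which does not divide by gene length, the members held 1.91% to 3.49% in PEFs and 5.86% to 6.86% in piPSCs. Between 9 and 20 members stood among the 100 rows of highest FPKM in PEF libraries, and 37 or 38 in piPSC libraries.

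**Figure D2:**
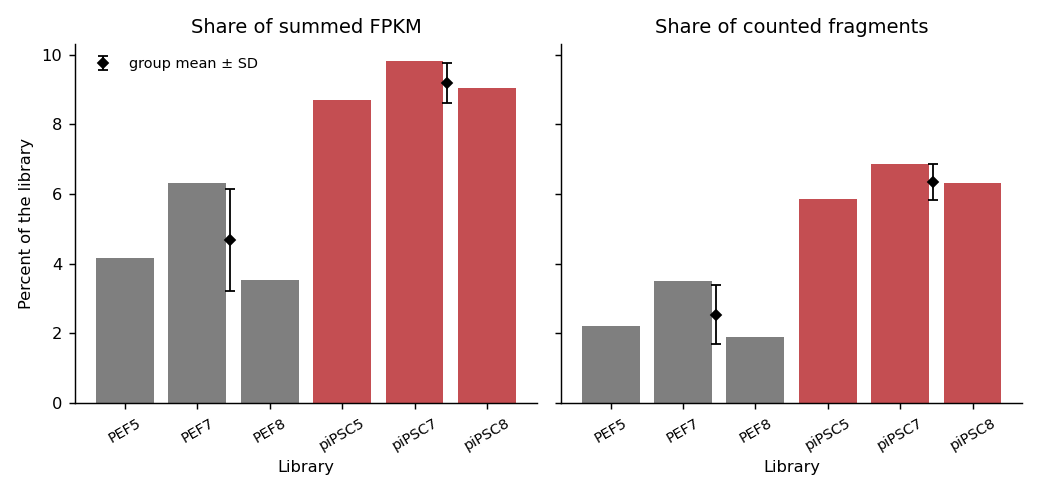
Share of the 55 ribosomal protein genes in each library, in percent of summed FPKM (left) and of counted fragments (right). Grey bars are PEF and red bars piPSC libraries, and diamonds with bars give the group mean ± SD. Every piPSC bar is higher than every PEF bar, and PEF7, at 6.32% of summed FPKM, is the highest of the PEFs.

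The 3 lines shared the direction but not the size of the change. The median log2 ratio of (FPKM + 1) over the 50 members was 1.34 in line 5, 0.98 in line 7 and 1.65 in line 8, beside medians of all genes tested of 0.21, 0.24 and 0.08. A ratio of at least 2-fold was reached by 44 members in line 5, 23 in line 7 and 44 in line 8, and by 21.9%, 24.9% and 23.8% of all genes tested. In line 7 the fibroblasts already stood high. PEF7 was the highest PEF library for 45 of the 50 members, with a median log2 ratio of 0.64 over PEF5, and the median ratio of PEF8 over PEF7 was -0.82. The corresponding medians of all genes tested were -0.09 and 0.06, so the higher level of PEF7 was not shared by the whole table. Among piPSCs the median ratio was 0.25 for piPSC7 over piPSC5 and -0.14 for piPSC8 over piPSC7. Within a group, levels of the members on the log2(FPKM + 1) scale were closely correlated. Pearson's r across genes was 0.987 to 0.995 between PEF libraries and 0.994 to 0.997 between piPSC libraries. Between the groups r was 0.968 to 0.993. These are correlations across genes, which are not independent replicates, and gene length is common to all points. RPL3L and RPS14, far below the other tested members, widen the range of levels, which can raise r. Values of r without them were not computed.

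**Figure D3:**
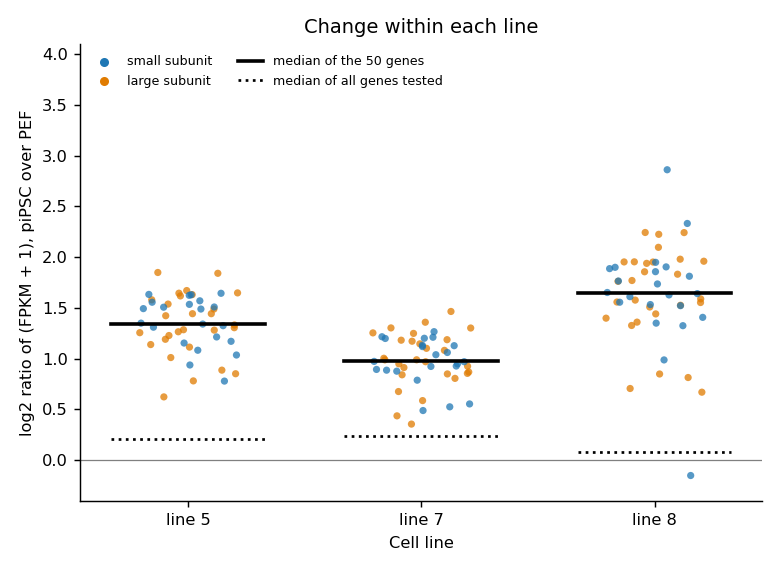
Log2 ratio of (FPKM + 1), piPSC over PEF, within each cell line for the 50 tested ribosomal protein genes. Points are genes coloured by subunit, solid lines the median of the 50 genes and dotted lines the median of all genes tested. Line 7 has the lowest median, 0.98, and only RPS27L in line 8 lies below 0.

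Both subunits rose, over similar ranges. Of 22 small-subunit members, 21 rose, with a median log2 fold change of 1.34 and a range of 0.53 to 1.87. Of 28 large-subunit members, 27 rose, with a median of 1.29 and a range of 0.59 to 1.85. Over all genes tested, 30.3% were called higher and 21.5% lower. The central part of the 50 changes, between the quartiles, ran from 1.16 to 1.55. The standard deviation of the changes was 0.303 among members and 1.49 among all genes tested. Among the 43 members with a mean FPKM of at least 100, all 43 rose, with a median of 1.36, while 196 of 436 other genes of such levels rose and 141 fell, with a median of 0.33. Members with a run of at least 8 C or T bases at the start had a median of 1.33 (23 members) and those with a shorter run a median of 1.39 (26 tested members).

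**Figure D4:**
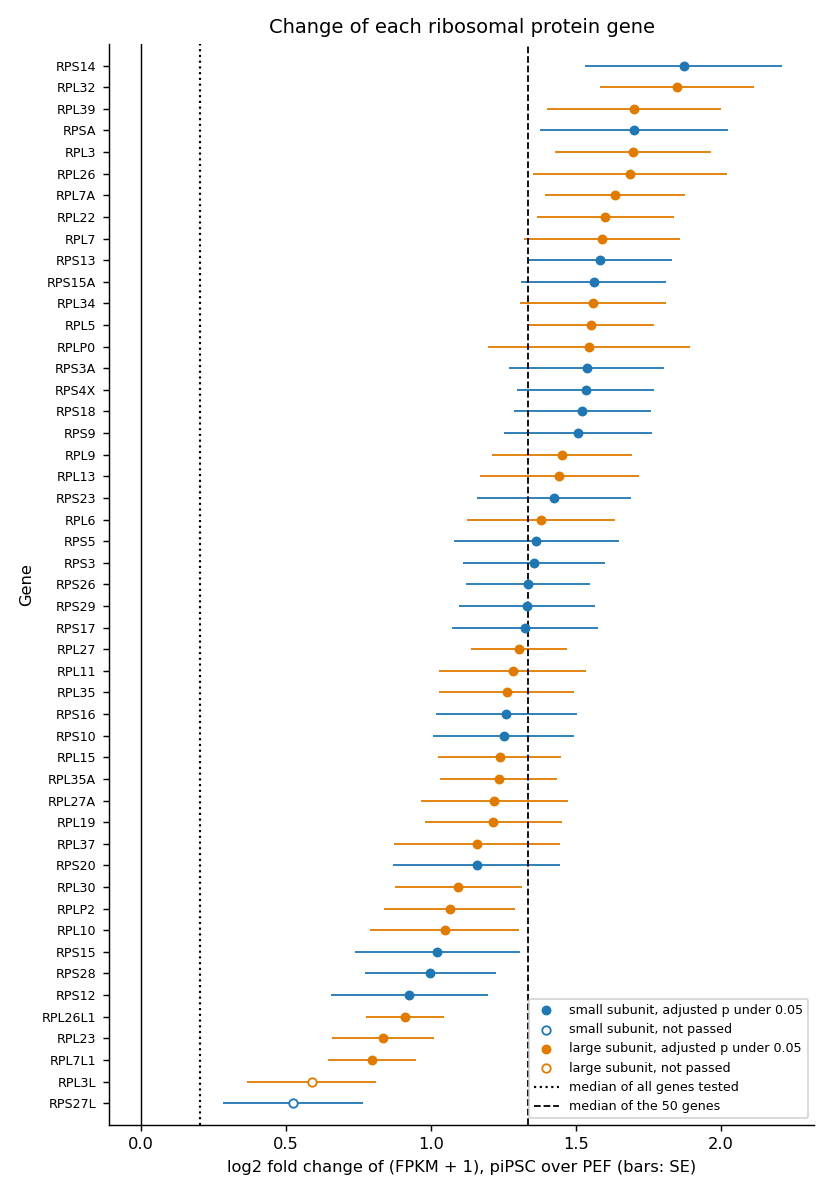
Log2 fold change of (FPKM + 1), piPSC over PEF, of 49 of the 50 tested members, with bars of 1 SE from the limma fit and colours for the subunit. Filled points passed at an adjusted p under 0.05 and open points, RPS27L and RPL3L, did not. All points lie to the right of the median of all genes tested, 0.20.

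The strongest levels belonged to RPL11, RPLP0, RPS16, RPS28 and RPS18. The order of levels between genes also reflects the gene models, which counted 537 bases for RPL11 and 6013 for RPL7A. RPL11 (ENSSSCG00000024260, chr6:81522760-81526880) is a large-subunit protein that travels with 5S ribosomal RNA. Its level was 851, 1319 and 749 FPKM in PEF5, PEF7 and PEF8 and 2144, 2506 and 2255.5 FPKM in piPSC5, piPSC7 and piPSC8. The groups did not overlap, and the rise on the log2 scale was 1.28 ± 0.25 (SE; adjusted p = 0.00661). RPL5, its partner on 5S ribosomal RNA and, like it, a binder of the p53 regulator MDM2, was at 236, 293 and 171 FPKM in the PEFs and 663, 669 and 679 FPKM in the piPSCs. RPL5 rose by 1.55 ± 0.22 (SE; adjusted p = 0.00192), and its piPSC libraries lay within a narrow range.

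RPLP0 (ENSSSCG00000036014, chr14:40219124-40223943) anchors the stalk of the large subunit, to which the elongation factors bind. It was at 661, 1175.5 and 466 FPKM in PEF5, PEF7 and PEF8 and at 1798.5, 2303 and 2180.0 FPKM in the corresponding piPSCs. PEF7 had by far the highest fibroblast level, and the log2 fold change was 1.55 ± 0.35 (SE; adjusted p = 0.0109). RPLP2, which binds RPLP0 as part of the stalk, was at 348, 566 and 364 FPKM and 795, 904 and 913 FPKM. It rose by 1.06 ± 0.23 (SE; adjusted p = 0.00886), less than RPLP0 in size, and the difference between them was not tested. RPLP1, its partner, was listed by identifier only and was at 368 ± 140.0 FPKM in PEFs and 851 ± 108 FPKM in piPSCs (SD, n = 3).

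Of the small subunit, RPS16 was at 673, 983 and 592 FPKM in the PEFs and 1517, 1927 and 1849.7 FPKM in the piPSCs, with a log2 fold change of 1.26 ± 0.24 (SE; adjusted p = 0.00596). RPS18, a protein of the subunit's head, was at 462, 745 and 466 FPKM and 1433, 1715 and 1553 FPKM and rose by 1.52 ± 0.24 (SE; adjusted p = 0.00276). RPS28 was at 628, 943 and 695 FPKM and 1331, 1789 and 1379 FPKM, and its change of 1.00 ± 0.23 (SE; adjusted p = 0.0113) was among the smallest. Each of the 3 had all its piPSC libraries above its PEF libraries.

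Among the largest changes were those of RPS14 and RPL32, whose order depended on the libraries. RPS14 (ENSSSCG00000031370, chr2:151430039-151433856) is a small-subunit protein whose loss of 1 copy is known from a human anaemia. Its level was far below that of most other members, at 1.61, 1.27 and 0.499 FPKM in the PEFs and 6.33, 4.45 and 9.89 FPKM in the piPSCs, from 5 to 72 fragments per library. The log2 fold change was 1.87 ± 0.34 (SE; adjusted p = 0.00489), above that of RPL32 (1.85), and 2.57 with a pseudocount of 0.1. It was below that of RPL32 without PEF7 (1.94 against 2.12), without PEF8 (1.639 against 1.643), without piPSC5 (1.896 against 1.919), without piPSC8 (1.61 against 1.86) and without both libraries of line 8 (1.38 against 1.65). The model of CD74 overlaps RPS14 on the same strand, and how fragments shared by 2 genes were counted is not given in the sources used here.

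RPL32 (ENSSSCG00000035811, chr13:68786856-68793244), a large-subunit protein, was at 207, 331 and 170.1 FPKM in the PEFs and 744, 915 and 809 FPKM in the piPSCs and rose by 1.85 ± 0.27 (SE; adjusted p = 0.00208). RPSA (ENSSSCG00000037236, chr13:24072510-24083686), also known as the laminin receptor, was at 255, 422 and 171 FPKM and 798, 923 and 865 FPKM. Its change was 1.70 ± 0.32 (SE; adjusted p = 0.00579), and PEF8 was its lowest library. RPL7A was at 148, 238 and 137 FPKM and 465, 587 and 537 FPKM, with a change of 1.64 ± 0.24 (SE; adjusted p = 0.00232). The remaining members among the 10 largest changes were RPL39, RPL3, RPL26, RPL22, RPL7 and RPS13. RPL22, which also binds viral and cellular RNAs outside the ribosome, changed by 1.60 ± 0.24 (SE; adjusted p = 0.00228) and RPS13 by 1.58 ± 0.25 (SE; adjusted p = 0.00282).

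Smaller changes were those of RPL23, RPS12, RPS15 and RPL10 among the members that are not paralogs. RPL23 (ENSSSCG00000038880, chr12:23279965-23290204), which can also bind MDM2, was at 362, 459 and 368 FPKM in the PEFs and 671, 803 and 647 FPKM in the piPSCs, a change of 0.84 ± 0.18 (SE; adjusted p = 0.00851). RPS12 was at 486, 821 and 438 FPKM and 932, 1153 and 1118.5 FPKM and changed by 0.93 ± 0.27 (SE; adjusted p = 0.0273). PEF7 came close to the lowest piPSC library, and the call was lost in 11 of 19 alternatives, among them the fits without PEF5, PEF8, piPSC5, piPSC7 or piPSC8 alone (log2 fold changes of 0.75 to 1.02, adjusted p from 0.0578 to 0.0888 by limma). RPS15, a protein of the subunit's head, was at 567, 991 and 491 FPKM and 1316, 1428 and 1232 FPKM with a change of 1.02 ± 0.28 (SE; adjusted p = 0.0232), and lost its call in 12, among them without each of the same 5 libraries (0.82 to 1.07, adjusted p from 0.0536 to 0.0781 by limma). RPL23, RPS12, RPS15, RPS28 and RPL10 were among the 8 members that lost their call when each library was rescaled to its median ratio.

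The X chromosome carries 3 members. RPS4X (ENSSSCG00000012405, chrX:58149198-58155188) was at 436, 561 and 312 FPKM in the PEFs and 1264, 1219 and 1209.6 FPKM in the piPSCs and rose by 1.53 ± 0.24 (SE; adjusted p = 0.00269). RPL39 (ENSSSCG00000030849, chrX:98178149-98181610), a small protein of the peptide tunnel, was at 153, 286 and 138 FPKM and 555, 708 and 539 FPKM and rose by 1.70 ± 0.30 (SE; adjusted p = 0.00432). RPL10 (ENSSSCG00000035997, chrX:124926772-124931450), a late-joining protein near the catalytic centre, was at 232, 382 and 202 FPKM and 504, 575 and 549 FPKM and rose by 1.05 ± 0.26 (SE; adjusted p = 0.0147). FLNA overlaps RPL10 on the same strand. Without both libraries of line 8, RPS4X (1.33) and RPL39 (1.58) passed, while RPL10 did not (0.85, adjusted p = 0.0850 by limma). RPL10 lost its call in 5 of 19 alternatives, among them without PEF5 alone (0.96, adjusted p = 0.0513 by limma). Without both libraries of line 5, RPS4X, RPL39 and RPL10 all missed the threshold (adjusted p of 0.0522, 0.0612 and 0.123 by limma). In each of the 3 genes all piPSC libraries lay above all PEF libraries.

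On the log2(FPKM + 1) scale, the 4 L-type paralogs listed by symbol were among the 10 smallest changes. Of these 4, 2 rose, and their median log2 fold change was 0.69. All 46 other tested members rose, with a median of 1.36. The background was 30.3% of all genes tested called higher, and 4 genes are too few to set against it. Within line 7 the median log2 ratios were 0.91 and 0.99. The difference between these groups of genes was not tested. The place of RPL3L depended on the pseudocount: with 0.1 it changed by 1.55, above the median of the members (1.35). A row matched to RPL22L1, outside the symbol rule, rose by 1.30 (adjusted p = 0.0446 by limma). RPS27L (ENSSSCG00000023158, chr1:108881464-108890283), a target of p53, was at 21.2, 24.4 and 33.4 FPKM in the PEFs and 37.1, 48.1 and 29.97 FPKM in the piPSCs. It was the only tested member whose groups overlapped, with piPSC8 below PEF8, and its log2 fold change of 0.53 ± 0.24 (SE; adjusted p = 0.109) did not pass. Without both libraries of line 8 it passed, at 0.86 with an adjusted p of 0.0326 from limma. RPS27 itself was not listed by symbol. RPL7L1 (ENSSSCG00000026472, chr7:37940549-37950049) was at 32.1, 26.3 and 31.3 FPKM and 58.8, 48.9 and 50.3 FPKM and rose by 0.80 ± 0.15 (SE; adjusted p = 0.00596). RPL26L1 (ENSSSCG00000016989, chr16:51267479-51276696) was at 53.0, 45.8 and 48.4 FPKM and 91.7, 99.5 and 88.0 FPKM and rose by 0.91 ± 0.13 (SE; adjusted p = 0.00228).

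The changes of their main genes were larger. RPL7 was at 316, 523 and 265 FPKM in the PEFs and 1009, 1159 and 1028 FPKM in the piPSCs, with a log2 fold change of 1.59 ± 0.27 (SE; adjusted p = 0.0038). RPL26 was at 312, 525 and 209 FPKM and 978, 1184 and 995 FPKM, with 1.69 ± 0.33 (SE; adjusted p = 0.00672). RPL7L1 was thus at 10.2%, 5.03% and 11.8% of the FPKM of RPL7 in PEF5, PEF7 and PEF8, and at 5.83%, 4.22% and 4.90% in the piPSCs. RPL26L1 was at 17.0%, 8.72% and 23.1% of RPL26 in the PEFs and at 9.37%, 8.40% and 8.85% in the piPSCs. In both pairs the share in PEF7 was near that of the piPSCs. The log2 ratio of paralog to main gene was lower in piPSCs by -0.79 for RPL7L1 (exact permutation test, p = 0.2) and by -0.78 for RPL26L1 (exact permutation test, p = 0.3).

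RPL3L (ENSSSCG00000032657, chr3:40005075-40016701), the form of RPL3 known from heart and skeletal muscle, was near 0 throughout. It was at 0.230, 0.175 and 0.232 FPKM in the PEFs and 0.894, 0.590 and 1.01 FPKM in the piPSCs, from 5 to 23 fragments per library. Its log2 fold change of 0.59 ± 0.22 (SE; adjusted p = 0.063) did not pass, while it passed with a pseudocount of 0.1 (1.55) and without piPSC7 (0.69), among other alternatives. RPL3 (ENSSSCG00000040494, chr5:8922653-8934282), a protein of the catalytic centre, was at 23.3, 36.3 and 17.7 FPKM and 74.2, 94.8 and 78.9 FPKM and rose by 1.70 ± 0.27 (SE; adjusted p = 0.00296). Relative to RPL3, RPL3L stayed near 1% of the FPKM, between 0.482% and 1.31% in all libraries. On the log2(FPKM + 1) scale the ratio differed by -1.11 (exact permutation test, p = 0.1), which the pseudocount can set at such low levels, and with a pseudocount of 0.1 it differed by -0.18 (exact permutation test, p = 0.5). Over the 3 pairs the adjusted p was 0.3 for each (Benjamini-Hochberg, exact permutation test). NDUFB10 overlaps RPL3L on the other strand, and the counting's use of strand is not given in the sources used here.

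The remaining 5 members did not reach a mean FPKM of 0.5 and were not tested. The second rows of RPL5 (chr1:271344580-271345458), RPL6 (chr6:91716165-91716996) and RPLP0 (chr14:111454926-111456460) held 0 or 1 fragment in each library. RPL36 (chr13:92458463-92458768), a row without introns, held 0 to 8 fragments, with 8 in PEF8 and 0 in the piPSCs. RPL10A (ENSSSCG00000001543, chr7:31327620-31330699) was at 0.174, 0.247 and 0.136 FPKM in the PEFs and 0.755, 0.782 and 0.751 FPKM in the piPSCs, and lies inside another gene model of the same strand. Ribosomal protein genes have many processed copies of near-identical sequence, so fragments of a member may have been split with copies or dropped. RPL35A, by contrast, is a tested member, and its only row under the symbol rule is without introns (chr9). That row was at 45.3 to 73.6 FPKM in PEFs and 125 to 149 FPKM in piPSCs. It is counted among the members that rose (log2 fold change 1.23, adjusted p = 0.00335 by limma). A row outside the symbol rule matched to RPL35A was at 53.2 to 89.6 FPKM in PEFs and 150 to 182 FPKM in piPSCs.

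Rows outside the symbol rule with a ribosomal protein as their Swiss-Prot match moved in the same direction. There were 157 such rows, of which 55 were tested, 42 rose, 0 fell and 13 did not pass, with a median log2 fold change of 1.28. Of all genes tested, 30.3% were called higher and 21.5% lower. Among the 24 of them with a mean FPKM of at least 50, 23 rose. The row matched to RPL8 was at 607, 902 and 483 FPKM in the PEFs and 1577, 1911 and 1687.0 FPKM in the piPSCs. RPL36A, a large-subunit protein, was at 59.7, 90.2 and 36.2 FPKM in the PEFs and 206, 319 and 230.2 FPKM in the piPSCs. The exception was the row of RPL28, at 312, 453 and 179 FPKM in the PEFs and 350.2, 424 and 375 FPKM in the piPSCs, which did not pass (log2 fold change 0.38 ± 0.33 SE, adjusted p = 0.369 by limma). These rows were named after their values were seen.

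Small nucleolar RNAs (snoRNAs), which guide the chemical modification of ribosomal RNA, are often made from introns of ribosomal protein genes. The table lists 32 snoRNA features inside 19 members on the same strand. Of 30 tested, 25 rose and 0 fell, with a median log2 fold change of 1.87, against 30.3% higher and 21.5% lower among all genes tested. A SNORA62 feature in RPSA and SNORD43 in RPL3 changed by 3.56 and 3.30. Together the 32 features held 290, 263 and 184 fragments in PEF5, PEF7 and PEF8 and 1125, 553 and 1041 in the piPSCs, few fragments for poly-A libraries, which are not made to hold snoRNAs. Features outside the members moved in the same direction: 102 of 169 rose and 1 fell, with a median of 1.55. Such a feature also counts fragments of unspliced host RNA, and which of them it held was not tested.

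Most other translation factors that were tested also rose, where 30.3% of all genes tested were called higher and 21.5% lower. RACK1, a scaffold on the small subunit, rose from 461 ± 187 to 1128 ± 22.3 FPKM (SD, n = 3) and RPL36AL from 33.3 ± 8.92 to 129 ± 24.5 FPKM (SD, n = 3). Of 12 tested messages of elongation factors and other TOP messages, 10 rose, 1 fell and 1 did not pass, with a median log2 fold change of 1.5. EEF1D rose by 1.91, EEF2, which moves the ribosome along the message, by 1.88 and NAP1L1 by 1.85. EEF1A2, the elongation factor form of muscle and nerve, fell from 38.1 ± 56.3 to 0.217 ± 0.185 FPKM (SD, n = 3), a log2 fold change of -3.77. TPT1, a well known TOP message, was at 1392 ± 433 FPKM in PEFs and 1212 ± 299 FPKM in piPSCs (SD, n = 3) and did not pass.

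Initiation factors rose in 17 of 20 tested genes, with 0 lower and a median of 1.13. For this and the next lists the background was again 30.3% of all genes tested higher and 21.5% lower. EIF3D, EIF3B and EIF3I, subunits of the largest initiation factor, changed by 1.65, 1.55 and 1.51. EIF4G2, EIF1 and EIF2B4 did not pass, at -0.44, -0.14 and 0.05. Among chaperones and importers of ribosomal proteins, 9 of 12 rose and 0 fell, with a median of 1.00. NAP1L1 is counted both here and among the TOP messages. IPO5 and IPO7, which carry ribosomal proteins into the nucleus, rose by 1.86 and 1.72, and AAMP, RPS19BP1 and HEATR3 did not pass, at -0.18, -0.23 and 0.56. A further list held genes that control the translation of ribosomal protein messages, and also the transcription factors MYC and MYCN. Of its 15 tested genes 8 rose and 1, MYC, fell, with a median of 0.68. LARP1, which binds TOP tracts, rose by 1.82, CNBP by 1.40 and LARP4 by 1.39. The MYC row fell from 38.9 ± 28.0 to 0.912 ± 0.588 FPKM (SD, n = 3), by -3.98 on the log2 scale with an adjusted p of 0.00634 from limma. The piPSCs also carried the delivered cMyc, and whether its fragments entered this row is not given in the sources used here. Rows for MTOR and RPTOR rose by 0.68 and 1.01.

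**Figure D5:**
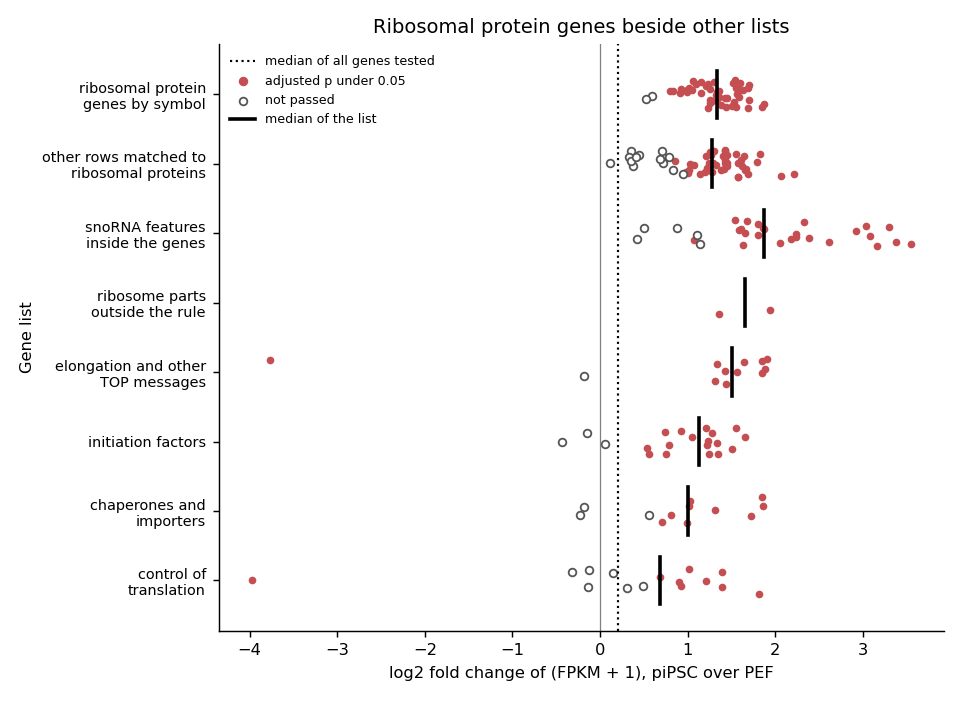
Log2 fold change of (FPKM + 1), piPSC over PEF, of tested genes in the ribosomal protein list and in 7 other lists. Red points passed at an adjusted p under 0.05, open points did not, black bars are list medians and the dotted line is the median of all genes tested, 0.20. The ribosomal protein genes lie close together, between 0.53 and 1.87.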

How the data were processed

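RNA-seq values of 3 PEF and 3 piPSC libraries were analysed. The authors deposited 1 table of FPKM per gene. Per the submitters' processing notes, the tools were HISAT2 2.1.0, Bowtie2 2.2.3 and HTSeq 0.6.0 with the build Sscrofa11.1; how shared fragments and strand were handled is not given in the sources used here. Reads of poly-A RNA were paired, of 150 bp.

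FPKM values of all 18007 genes fitted whole fragments within 0.01 fragments, given a whole gene length and a total per library (11010629 to 17836510 fragments). The length taken was mostly the smallest that fitted, so lengths and fragments of single genes may be off. Recovered fragments summed to 11958644 in piPSC7 against a total of 11892011, and to 10987641 in piPSC8 against 11010629. Precision in counts is that of counting error only, and PCR duplicates are included. The 2 groups were compared by limma 3.58.1 (R 4.3.3; lmFit, then eBayes with its trend option) after adding 1 to FPKM and taking log2. The 12428 genes whose mean FPKM reached 0.5 entered, and p-values were two-sided, adjusted by Benjamini-Hochberg over all genes tested and called at 0.05. Shares and paralog ratios were compared by exact permutation of the libraries, two-sided, where 3 against 3 cannot give a p under 0.1. Replicates are separate cell lines. The recovery and the fit were tested on simulated data. Transcript starts and motifs were read with pysam 0.24.0 from RefSeq's Sscrofa11.1 genome, and summaries were made in Python 3.11.15 with numpy 2.4.6 and pandas 2.3.3.

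PEFs of a number gave rise to the piPSCs of that number, so the numbers pair the libraries. Same-numbered libraries deviated together from their group means only weakly (correlations across genes of 0.0921, 0.0946 and 0.0800). The main fit leaves the pairing out, as an unpaired test is named in the study's methods, and the fit with the line as a block was an alternative.

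Named members are the 10 largest and 10 smallest changes, the 5 highest mean levels, the L-type paralogs with their main genes, the stalk, RPSA, RPL5, RPL11, the X-linked members and those under the filter. Of other lists, up to 3 of the largest changes per direction were named. Genes given because they did not pass, TPT1, MTOR and RPTOR were picked after their values were seen, as were the rows outside the symbol rule and the snoRNAs. The values of 1 member are not reported here. The members and lists were chosen with earlier results of these data known.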

Additional observations from a re-analysis of the deposited data

How the results depend on the processing

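Over 19 alternatives (other pseudocounts, filters and scalings, no trend, voom on recovered fragments, the replicate block, and leaving out libraries or lines), the 50 tested members gave 949 values of their change, of which 859 kept their direction and side of the threshold, 84 lost and 6 gained a call, and 0 reversed. The scaling to the sum over genes outside the list was chosen after seeing the data. Rescaling to a sum of 1000000 gave 27 members at least 2-fold higher, against 42. Leaving out libraries gave 11 to 48 members higher, 10 to 45 at least 2-fold higher and 0 lower, with medians of 1.18 to 1.58. In these fits 14.2% to 28.9% of all genes tested were called higher. The lowest counts, 11 and 10, came without both libraries of line 5, where 2 libraries a group remain; of all genes tested, 1768 were then called higher, against 3763, and the cause was not tested. The share of summed FPKM rose by 3.94 to 5.32 percentage points without single libraries and by 3.798 without the 3 members of highest mean FPKM, and the log2 ratio of paralog to main gene differed by -1.40 to -0.87 for RPL3L, -1.16 to -0.55 for RPL7L1 and -1.17 to -0.47 for RPL26L1. With the replicate block, which pairs the libraries of a line, 48 members were higher, 42 at least 2-fold higher and 0 lower. Their median was 1.33, and the block changed no call of a member. With it 28.0% of all genes tested were called higher. Paired by line, the share (4.50 percentage points) and each paralog ratio (-1.11, -0.79 and -0.78) gave p = 0.25 by exact sign flips, the smallest that 3 pairs allow. Depth limits RPL3L, RPS14 and the rows under the filter, which rest on few fragments.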
